A study of Mus musculus with 5 samples.

Results

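The Wnt pathway genes of skin described here are 45 genes named by symbol, from ligands to nuclear factors and secreted inhibitors. They were measured by RNA-seq in total epidermis, the epithelium of the skin, freed from mouse back skin by dissection and overnight trypsin. Of the 45, 44 were among the 21667 genes listed, and Sp5 was absent from that list. The mice were wild-type C57BL/6 males of postnatal day 49, shaved on the back. In 2 libraries the skin had received 10 µM forskolin, a plant diterpene that activates adenylyl cyclase. In 2 libraries it had received 1.325 mM cAMP, the second messenger which that enzyme makes, and 1 control library is labelled untreated. Both agents were carried in DMSO and a PLO lotion and applied 3 times within 5 days, and it is not stated whether lotion was also put on the control skin. The study asked how Creb, the transcription factor that protein kinase A switches on when cAMP rises, acts on the pace of the hair cycle.

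In the canonical Wnt pathway, a lipid-modified Wnt protein joins a Frizzled receptor and an LRP co-receptor, and Dishevelled then disables the complex that marks beta-catenin for destruction. Beta-catenin accumulates, enters the nucleus and turns TCF/LEF factors on their target genes from repressors into activators. In skin the pathway is known for its part in the placement of hair follicles and in the entry of resting follicles into growth.

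With only 1 control library, no spread could be measured in the control, and it was taken to vary as the treated libraries did. Nothing states that replicate libraries are different animals, and p-values therefore cover only the spread among these libraries, which may be technical. Values are CPM (counts per library, normalised to a common total), summed over a gene's transcripts and then rescaled to a common median ratio between libraries, called scaled CPM here. Nuclear genes made up 31.4% and 34.8% of the listed signal with forskolin and 38% and 26% with cAMP, against 7.9% in the control. Without rescaling, the median of all tested genes lay 1.69 (forskolin) and 1.66 (cAMP) log2 units above the control, and with it 0.21 and 0.20. Read depths, estimated from the small offset that stands in for 0, were 34200000 to 51700000. After rescaling, 1 read stood for 0.0623 scaled CPM in the control and for 0.0118 to 0.0262 in the treated libraries. Control values of nuclear genes thus rest on fewer reads, and the fit did not weight the control down for this. Some genes seem to be missing from single libraries. The reads expected in a library were taken from the mean of the other treated libraries, or of all 4 for the control. Of the genes with 20 or more expected reads, 0.368% to 3.76% in the treated libraries and 8.43% in the control were listed under 1 read. The control figure also counts any genes that were higher with treatment, so it cannot be set beside the others. A control value of 0 is therefore given as listed at 0, and the fitted change of such a gene on the log2(scaled CPM + 1) scale depends on the added 1 and is neither a fold nor a bound.

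Of the 44 listed genes, 39 reached 1 CPM in at least 2 libraries and were tested with limma among 13764 genes. Lef1, Fzd4, Nkd1 and Notum stayed under 1 CPM in every library, and Nkd2 reached 1 CPM in 1 library. This filter used CPM before rescaling, which divided the control by 0.325 and the treated libraries by 1.12 to 1.64. At equal scaled CPM, a gene therefore reached 1 CPM less easily in the control. In the control Lef1 was at 0.547 CPM (1.68 scaled) and Nkd2 at 0.952 CPM (2.93 scaled). Because the control is 1 library, no gene could pass that filter through the control alone. Among the 39, 9 were under 1 CPM in the control and passed through treated libraries only, a route that favours genes that are higher with treatment. These are Wnt16, Porcn, Fzd2, Fzd3, Fzd5, Fzd8, Znrf3, Dvl3 and Wif1.

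**Figure D1:**
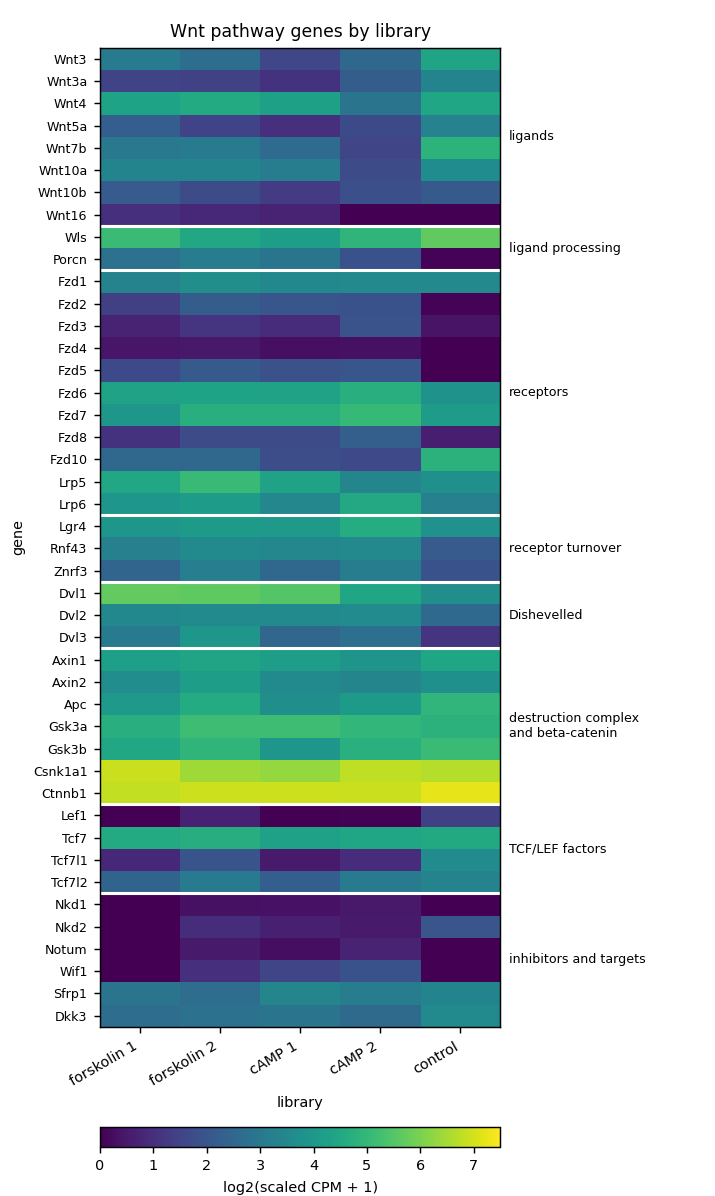
Level of the 44 listed Wnt pathway genes (rows, grouped by role) in the 2 forskolin, 2 cAMP and 1 control libraries (columns), as log2(scaled CPM + 1), not corrected for transcript length. Along their rows, Fzd10, Wnt7b and Tcf7l1 are brighter in the control than in any of the 4 treated libraries, and Dvl1, Dvl3 and Porcn are darker in it.

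The pathway did not move as a block. Of the 8 ligands 4 were lower with both agents (Wnt3, Wnt3a, Wnt5a and Wnt7b), as were Fzd10 and Tcf7l1, while Dvl1, Dvl3, Fzd2, Fzd5, Porcn and Rnf43 were higher with both. Of the genes that were higher, Dvl3, Fzd2, Fzd5 and Porcn, and Wif1 with cAMP, had passed the filter through treated libraries only, a route that 31.4% of all tested genes took, so these calls carry no weight as a count. With forskolin 6 of the 39 genes passed as higher (15.4%, where 14.9% of all tested genes did) and 6 as lower (15.4%, where 6.79% did), by limma at an adjusted p of 0.05. With cAMP 7 passed as higher (17.9%, where 15.4% of all tested genes did) and 6 as lower (15.4%, where 7.23% did). In the higher direction the share was near that of all genes. Taken in either direction, 12 genes (30.8%, where 21.7% of all tested genes passed) were called with forskolin and 13 (33.3%, where 22.7% did) with cAMP. The 12 were also called with cAMP in the same direction, but both comparisons use the same control library. The median change of the 39 was 0.07 log2 with forskolin and -0.11 with cAMP, against 0.21 and 0.20 for all tested genes. On the deposited CPM without rescaling, 25 and 24 of the 39 passed as higher (66.3% and 65.1% of all tested genes did) and none as lower (0.341% and 0.436% did), so each direction given here is relative to the typical gene. With quantile normalization 3 were higher and 6 lower with forskolin, and 1 and 6 with cAMP, and with GC and length correction 4 and 7, and 2 and 11. Over all genes these settings also moved the balance: quantile normalization called 1018 higher and 884 lower with forskolin and 1109 and 936 with cAMP, of 13764, and GC and length correction called 1748 and 1624, and 1820 and 1860, of 13668. All 4 treated libraries lay above the control for 13 of the 39 (42.1% of all tested genes) and below it for 14 (27.8% of all tested genes).

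**Figure D2:**
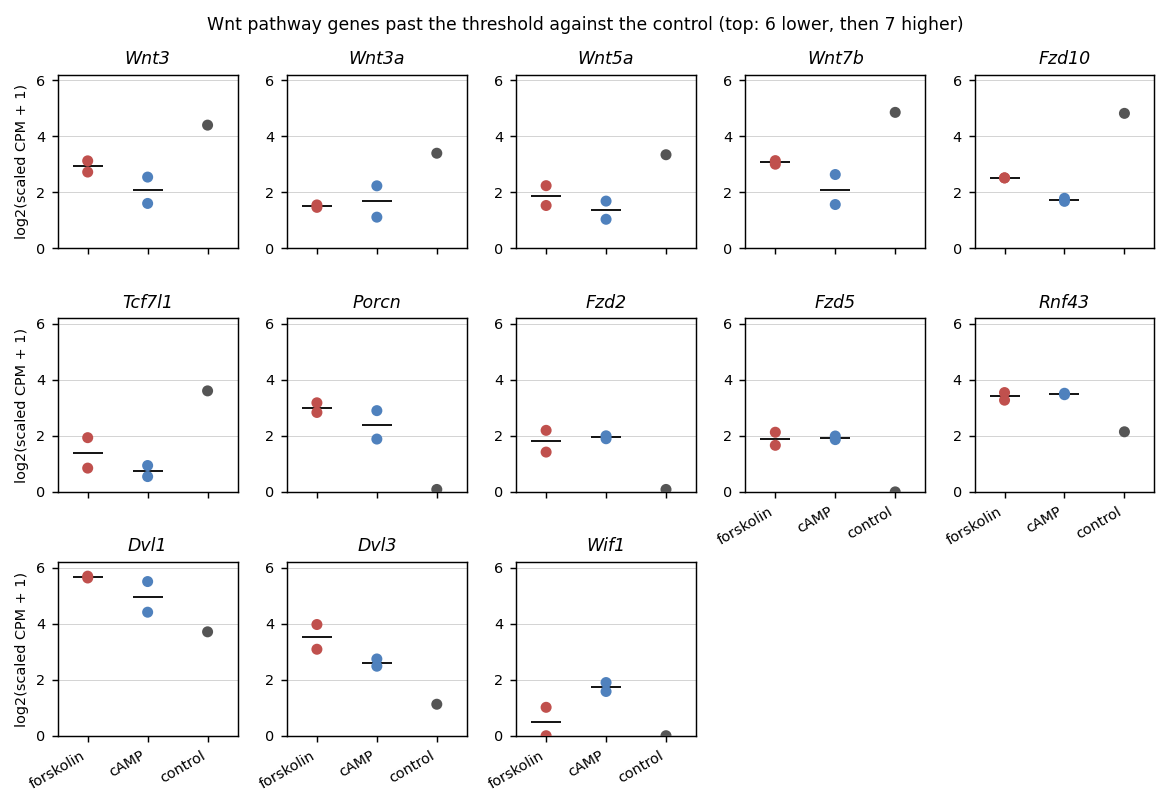
Level, as log2(scaled CPM + 1), of the 13 Wnt pathway genes that passed against the control with either agent. Points are libraries and bars are means of 2 libraries. In the 6 genes that were lower (Wnt3 to Tcf7l1) the control point lies above all 4 treated points, and in the higher ones other than Wif1 it lies below them.

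Wnt ligands are secreted proteins that act over short distances. Of the 8 measured, Wnt3, Wnt3a, Wnt5a and Wnt7b were lower with both agents, none was higher, and 4 did not pass. Wnt7b (chr15:85535439-85581821, minus strand) was at 6.98 and 7.72 scaled CPM with forskolin, 5.18 and 1.94 with cAMP, and 27.8 in the control. No treated library reached the control value. Its log2 change was -1.79 ± 0.47 (SE) with forskolin and -2.76 ± 0.47 with cAMP (limma adjusted p = 0.0127 and 0.00053). Wnt3 (chr11:103774150-103817957, plus strand), a canonical ligand, was at 7.67 and 5.57 scaled CPM with forskolin, 2.02 and 4.80 with cAMP, and 20 in the control. It was lower by -1.48 ± 0.48 with forskolin and -2.33 ± 0.48 with cAMP (limma adjusted p = 0.0338 and 0.00204).

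Wnt3a, a ligand widely used to switch on beta-catenin signalling in culture, lies apart from Wnt3 on the same chromosome (chr11:59248033-59290752, minus strand). It was at 1.91 and 1.74 scaled CPM with forskolin, 1.15 and 3.67 with cAMP, and 9.47 in the control. The change was -1.89 ± 0.52 with forskolin and -1.72 ± 0.52 with cAMP (limma adjusted p = 0.0165 and 0.0244). Wnt5a (chr14:28504750-28527447, plus strand), known mainly for signalling that does not use beta-catenin, was at 3.69 and 1.87 with forskolin, 1.04 and 2.20 with cAMP, and 9.09 in the control. Its change was -1.46 ± 0.51 with forskolin and -1.98 ± 0.51 with cAMP (limma adjusted p = 0.0482 and 0.00991). Again no treated library reached the control. On protein-coding transcripts alone Wnt5a did not pass with either agent, as described below. Without forskolin 2 the forskolin calls of Wnt3 (-1.27) and Wnt5a (-1.10) were lost (limma adjusted p = 0.110 and 0.236). The forskolin call of Wnt5a was lost as well without cAMP 1 (-1.43) or cAMP 2 (-1.44), and the cAMP calls of Wnt3a (-1.14) and Wnt5a (-1.61) were lost without cAMP 1.

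The 4 remaining ligands did not pass. Wnt4, a ligand known in basal keratinocytes, was at 19.4 and 23.2 scaled CPM with forskolin, 18.2 and 6.32 with cAMP, and 20.4 in the control. The cAMP 2 library alone was low, and without cAMP 1 the change with cAMP was -1.52. That value sets a single cAMP library against the single control. Wnt10a, a ligand whose loss impairs hair and teeth, was at 9.34 and 9.37 with forskolin, 7.82 and 2.28 with cAMP, and 11.5 in the control. Every treated library lay below the control. Without cAMP 1 its change with cAMP was -1.89, again a single cAMP library against the control. Wnt10b, known to promote follicle growth, was at 3.44 and 2.36 with forskolin, 1.5 and 2.57 with cAMP, and 3.36 in the control. Wnt16 was at 1.06 and 0.824 with forskolin, 0.639 in cAMP 1, and listed at 0 in cAMP 2 and in the control.

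Before secretion, Porcn attaches a fatty acid to Wnt proteins and Wls carries them to the cell surface. Porcn (chrX:8193848-8206525, minus strand) was at 6.15 and 8.08 scaled CPM with forskolin, 6.48 and 2.70 with cAMP, and 0.0623 in the control, the value of 1 estimated read. All 4 treated libraries lay above the control. The log2 change was 2.92 ± 0.51 with forskolin and 2.31 ± 0.51 with cAMP (limma adjusted p = 0.000736 and 0.00359). On the log2(scaled CPM + 1) scale this was the largest rise among the 39 in both comparisons, and it came from transcripts annotated as targets of nonsense-mediated decay, described below. Wls was at 33.5 and 21.5 with forskolin, 17.1 and 29.0 with cAMP, and 50.1 in the control, and did not pass (-0.87 and -1.13, limma adjusted p = 0.139 and 0.0585).

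Frizzled proteins are the membrane receptors for Wnt ligands. Of the 9 measured, Fzd10 was lower and Fzd2 and Fzd5 were higher with both agents. Fzd10 (chr5:128600844-128604093, plus strand) was at 4.68 and 4.69 scaled CPM with forskolin, 2.43 and 2.18 with cAMP, and 27.1 in the control. The pairs of replicates were close to each other and far from the control. Its change, -2.31 ± 0.44 with forskolin and -3.09 ± 0.44 with cAMP, was the largest fall among the 39 on the log2(scaled CPM + 1) scale in both comparisons (limma adjusted p = 0.00146 and 9.74e-05). That order depends on the added 1, since the ratio of means was more extreme for Tcf7l1, described below. Among the 39 it was also the only gene whose deposited CPM, without rescaling, lay below the control in all 4 treated libraries, as 1.66% of all tested genes did.

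Fzd2 (chr11:102604396-102608058, plus strand) was at 1.68 and 3.59 scaled CPM with forskolin, 3.01 and 2.73 with cAMP, and 0.0623 in the control. Its change was 1.72 ± 0.52 with forskolin and 1.86 ± 0.52 with cAMP (limma adjusted p = 0.0250 and 0.0154). Fzd5 (chr1:64730558-64737751, minus strand) was at 2.17 and 3.38 with forskolin, 2.65 and 2.99 with cAMP, and listed at 0 in the control. The fitted change was 1.90 ± 0.50 and 1.93 ± 0.50 (limma adjusted p = 0.0130 and 0.0106). Estimated reads in the treated libraries ran from 104 to 254 for Fzd2 and from 114 to 225 for Fzd5. In the control Fzd2 had 1 estimated read, and both genes reached 1 CPM in treated libraries only. The forskolin calls were lost without forskolin 2 (1.28 for Fzd2, 1.6 for Fzd5), and the cAMP call of Fzd2 without cAMP 1 (1.71) or cAMP 2 (1.91).

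The more abundant Frizzleds varied less. Fzd6, which acts in planar cell polarity and orients hair follicles in mice, was at 19.0 and 19.2 with forskolin, 18.9 and 25.5 with cAMP, and 13.3 in the control. Fzd7 was at 14.6 and 25.5 with forskolin, 24.9 and 31.6 with cAMP, and 16.3 in the control, so that its forskolin libraries lay on both sides of the control. Fzd1 was at 9.29 and 12.0 with forskolin, 10.3 and 10.5 with cAMP, and 10.5 in the control. None of the 3 passed (limma adjusted p from 0.199 to 0.996). Fzd3 and Fzd8 were at most 2.78 and 3.78 in any library and did not pass, though all 4 treated values lay above the control.

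Lrp5 and Lrp6 are the co-receptors that bind Wnt together with a Frizzled. Lrp5 was at 21.6 and 32.6 scaled CPM with forskolin, 18.9 and 9.63 with cAMP, and 12.6 in the control. Lrp6 was at 14.3 and 16.2 with forskolin, 10.2 and 22.2 with cAMP, and 8.66 in the control. Neither passed with both libraries of each group. Without forskolin 1 the change of Lrp5 with forskolin was 1.32, a single forskolin library against the single control. The cAMP libraries split: per kb of transcript, Lrp6 made up 17.6% of the pair in cAMP 1 and 53.6% in cAMP 2, against 22.2% in the control, with 20% and 17.9% in the forskolin libraries.

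Receptor number is set in part by Rnf43 and Znrf3, ubiquitin ligases that remove Frizzled from the membrane and are themselves Wnt targets, and by Lgr4, an R-spondin receptor that restrains them. Rnf43 (chr11:87662722-87735539, plus strand) was at 8.69 and 10.7 scaled CPM with forskolin, 10.1 and 10.5 with cAMP, and 3.43 in the control. The 4 treated values were close together and above the control. Its change was 1.27 ± 0.42 with forskolin and 1.35 ± 0.42 with cAMP (limma adjusted p = 0.0376 and 0.0262). The margin was narrow, since leaving out forskolin 1 (1.40), forskolin 2 (1.12), cAMP 1 (1.36) or cAMP 2 (1.35) put the adjusted p of the agent concerned between 0.0517 and 0.159. Znrf3 was at 4.42 and 8.21 with forskolin, 4.74 and 7.90 with cAMP, and 2.74 in the control, with no overlap, and did not pass (0.92 ± 0.48 and 0.93 ± 0.48, limma adjusted p = 0.174 and 0.169). Lgr4 was at 14.6 and 15.9 with forskolin, 15.6 and 24.0 with cAMP, and 13.0 in the control, and did not pass.

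Dishevelled proteins relay the signal from the receptors into the cell. Dvl1 and Dvl3 were higher with both agents, and Dvl2 did not pass. Dvl3 (chr16:20516982-20532520, plus strand) was at 7.51 and 14.7 scaled CPM with forskolin, 4.59 and 5.69 with cAMP, and 1.18 in the control. Its change was 2.40 ± 0.47 with forskolin and 1.49 ± 0.47 with cAMP (limma adjusted p = 0.00193 and 0.0306). The cAMP call was lost without cAMP 1 (1.57) or cAMP 2 (1.37), while the forskolin call passed in all 13 other settings tried. Dvl2 was at 10.4 and 10.7 with forskolin, 10.9 and 11.4 with cAMP, and 4.86 in the control, with no overlap (0.98 ± 0.41 and 1.05 ± 0.41, limma adjusted p = 0.0888 and 0.0707).

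Dvl1 (chr4:155847402-155859303, plus strand) was at 51.0 and 48.7 scaled CPM with forskolin, 44.5 and 20.3 with cAMP, and 12.1 in the control. The change was 1.95 ± 0.43 with forskolin and 1.24 ± 0.43 with cAMP (limma adjusted p = 0.00427 and 0.0455), and the cAMP call was lost without cAMP 1 (0.70). The gain lay in transcripts that keep an intron. Retained-intron transcripts of Dvl1 summed to 42.2 and 29.6 with forskolin, 41.2 and 14.3 with cAMP, and 1.54 in the control. Its protein-coding transcripts summed to 8.28 and 18.8 with forskolin, 3.07 and 5.99 with cAMP, and 10.6 in the control, values that overlap.

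**Figure D3:**
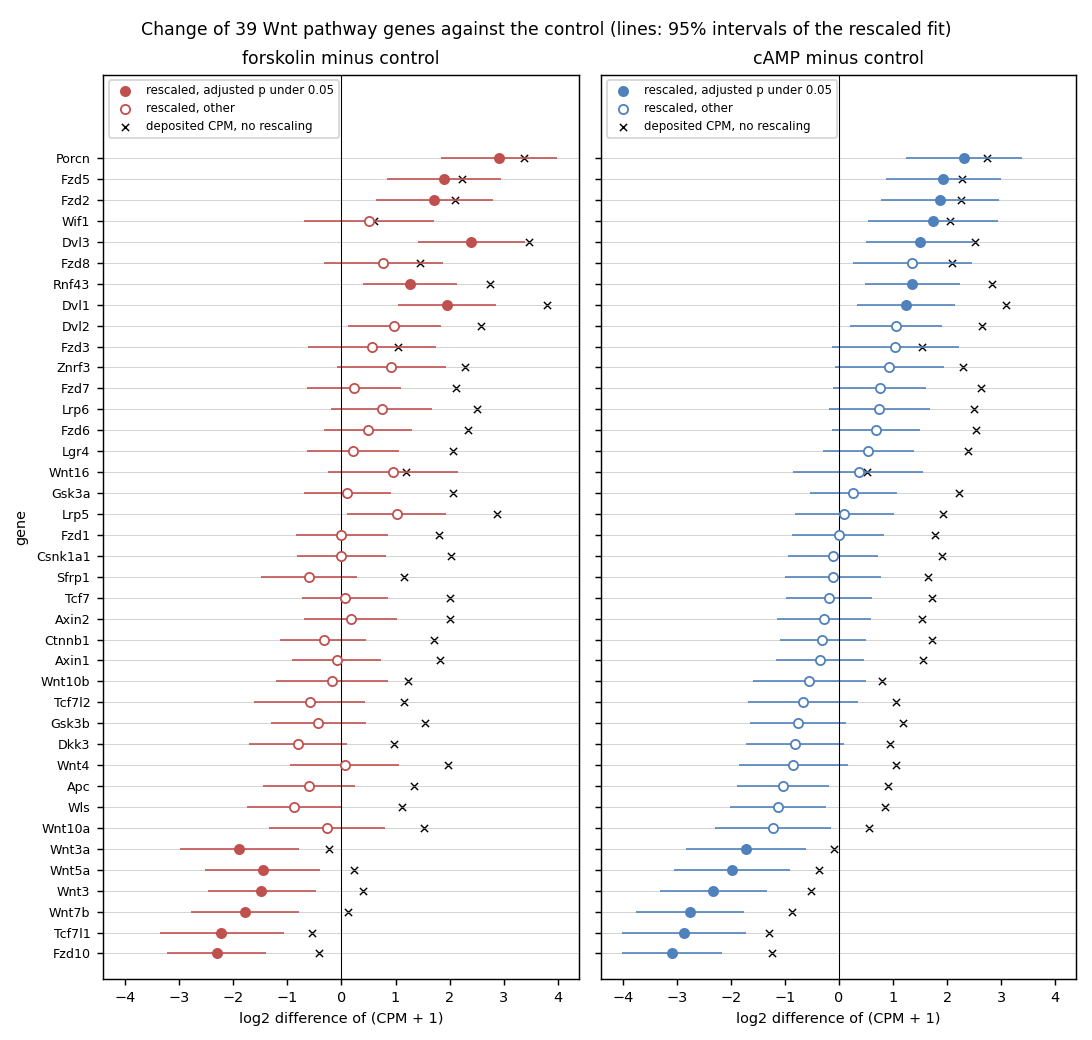
Log2 difference from the control of the 39 tested Wnt pathway genes, for forskolin (left) and cAMP (right), ordered by the cAMP change. Circles are differences of log2(scaled CPM + 1) with 95% intervals, filled where the limma adjusted p is under 0.05, and crosses are the differences on the deposited CPM without rescaling. The crosses lie to the right of the circles, by more for abundant genes, so that no gene was called lower on the deposited scale.

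The destruction complex holds beta-catenin down, through the scaffolds Axin1, Axin2 and Apc and the kinases Gsk3a, Gsk3b and Csnk1a1. None of these 6, nor Ctnnb1, the gene of beta-catenin itself, passed in either comparison. Ctnnb1 was at 112 and 122 scaled CPM with forskolin, 120 and 118 with cAMP, and 148 in the control, a change of -0.33 ± 0.38 and -0.31 ± 0.38 (limma adjusted p = 0.545 and 0.579). The 4 treated libraries were close to each other and a little below the control. Csnk1a1 was at 119 and 84.4 with forskolin, 79.1 and 108 with cAMP, and 100 in the control. Gsk3a was at 25 and 34.7 with forskolin, 35.2 and 30.5 with cAMP, and 27.2 in the control, and Gsk3b was at 21.2 and 28.9, 14.4 and 26.2, and 33.7. Apc was at 15.5 and 23.7 with forskolin, 12.2 and 15.9 with cAMP, and 29.6 in the control, and Axin1 was at 18.0 and 19.9, 17.6 and 13.8, and 20.2. The treated libraries of Ctnnb1, Gsk3b, Apc and Axin1 lay below the control, and those of Csnk1a1 and Gsk3a lay on both sides of it. The 95% interval of the Ctnnb1 change ran from -1.13 to 0.46 with forskolin and from -1.10 to 0.49 with cAMP.

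TCF/LEF factors carry beta-catenin to DNA. Tcf7l1 (chr6:72626378-72789254, minus strand) is known as a repressor in follicle stem cells of the bulge. It was at 0.802 and 2.83 scaled CPM with forskolin, 0.461 and 0.921 with cAMP, and 11.2 in the control. All treated libraries lay far below the control, with a change of -2.22 ± 0.55 with forskolin and -2.87 ± 0.55 with cAMP (limma adjusted p = 0.00849 and 0.00118). Without forskolin 1 the forskolin call was lost (-1.63, adjusted p = 0.0585). Tcf7 was at 22.8 and 24.5 with forskolin, 18.7 and 20.5 with cAMP, and 22.5 in the control, a change of 0.07 ± 0.38 and -0.19 ± 0.38. Tcf7l2 was at 4.30 and 7.58 with forskolin, 3.73 and 7.63 with cAMP, and 9.15 in the control, and did not pass. Lef1, the factor of the hair matrix and also a Wnt target, was at 0.00334 and 0.627 with forskolin, 0.0147 and 0.0262 with cAMP, and 1.68 in the control, and was too low to be tested.

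Genes that Wnt signalling switches on in many tissues, and that in turn damp it, serve as a readout of pathway activity. Axin2, the most used of them, was at 11.8 and 17.2 scaled CPM with forskolin, 10.9 and 9.60 with cAMP, and 12.6 in the control. The control lay within the range of the treated libraries, and the change was 0.17 ± 0.41 with forskolin and -0.28 ± 0.41 with cAMP (limma adjusted p = 0.790 and 0.651). The 95% intervals, -0.69 to 1.03 and -1.14 to 0.59, leave room for a change in either direction. Nkd1, a Dishevelled-binding inhibitor, was listed at 0 in forskolin 1, at 0.270 in forskolin 2, at 0.296 and 0.420 with cAMP, and at 0 in the control. Nkd2, its relative, was listed at 0 in forskolin 1, at 0.979 in forskolin 2, at 0.568 and 0.446 with cAMP, and at 2.93 in the control. Notum, an enzyme that strips the lipid from Wnt, was listed at 0 in forskolin 1, at 0.446 in forskolin 2, at 0.202 and 0.656 with cAMP, and at 0 in the control. Levels this low did not allow a comparison.

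Of the secreted inhibitors, Wif1, which binds Wnt proteins outside the cell, was listed at 0 in forskolin 1 and in the control, and was at 1.02 in forskolin 2 and at 1.99 and 2.73 with cAMP. It passed as higher with cAMP only (1.74 ± 0.57, limma adjusted p = 0.0357, and with forskolin 0.51 ± 0.57, 0.539). The difference between the agents did not pass (-1.23 ± 0.47, limma adjusted p = 0.307), and the cAMP call was lost without cAMP 1 (1.78) or cAMP 2 (1.57). Sfrp1, a Frizzled-like decoy, was at 6.41 and 5.42 with forskolin, 9.55 and 7.84 with cAMP, and 9.47 in the control. Dkk3, a member of the Dickkopf family whose effect on Wnt varies between settings, was at 5.44 and 6.04 with forskolin, 6.33 and 5.09 with cAMP, and 10.8 in the control. Neither passed, although the treated values of Dkk3 lay below the control.

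Shares within a family do not depend on how libraries are scaled and are given here for the Frizzleds, the TCF/LEF factors and the ligands. Per kb of transcript, Fzd10 made up 11.5% and 8.75% of the Frizzled signal with forskolin, 5.02% and 3.66% with cAMP, and 47% in the control. Fzd6 and Fzd7 together led in the treated libraries: Fzd6 took 36.2% and 27.5% with forskolin, 30.1% and 33.2% with cAMP, and 17.8% in the control, and Fzd7 took 25.9% and 34.2%, 36.9% and 38.2%, and 20.3%. Tcf7l1 made up 2.36% and 5.92% of the TCF/LEF signal with forskolin, 2.2% and 2.76% with cAMP, and 21.8% in the control. Tcf7 took the larger part in every library, 85.4% and 71.2% with forskolin, 82.4% and 75.7% with cAMP, and 53.7% in the control. Among ligands, Wnt7b made up 11.2% and 12.1% with forskolin, 13.5% and 7.76% with cAMP, and 26% in the control, where it was the leading ligand. Wnt4 took 25% and 29.1% with forskolin, 37.9% and 20.3% with cAMP, and 15.2% in the control. These shares rest on 1 control library and were not tested. Those of the ligands also carry the effect of short transcripts, described below.

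**Figure D4:**
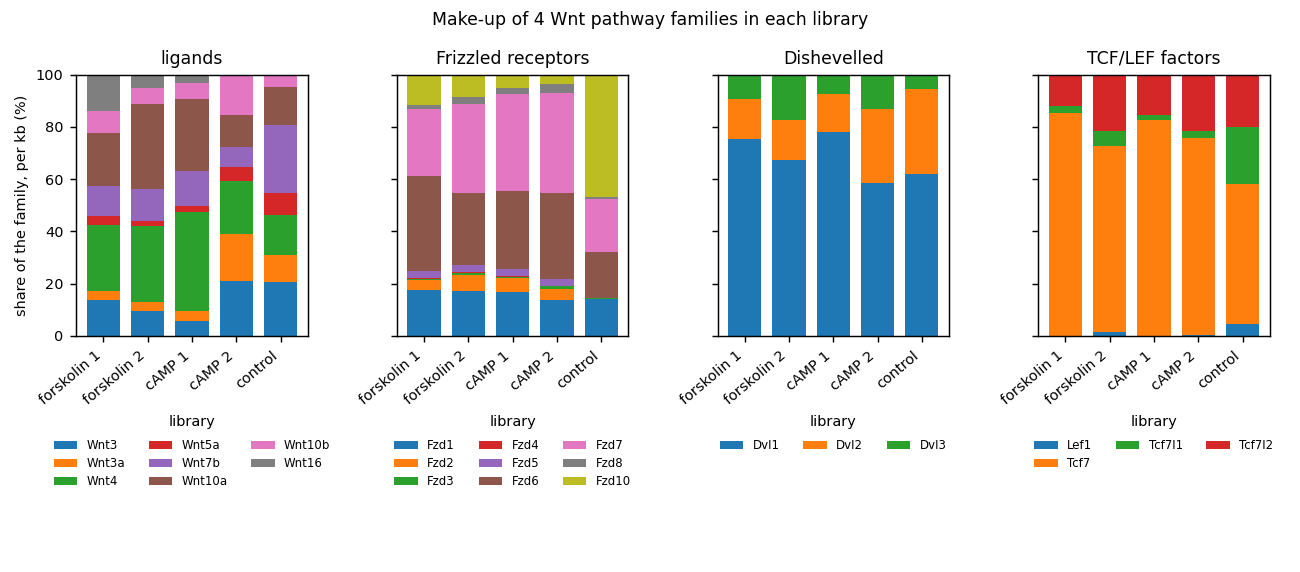
Share of each gene in the summed level of its family, per kb of transcript, in the 2 forskolin, 2 cAMP and 1 control libraries (bars add to 100%). Fzd10 fills 47% of the Frizzled bar in the control and at most 11.5% in a treated library, and Tcf7l1 fills 21.8% of the TCF/LEF bar in the control and at most 5.92% in a treated library.

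Summed per kb, the 8 ligands stood to the 9 Frizzleds at a ratio of 1.48 and 1.15 with forskolin, 0.772 and 0.407 with cAMP, and 1.8 in the control. Every treated library was below the control, and the cAMP libraries were below the forskolin libraries. The ratio is independent of scaling too, but part of Wnt16 lay on a very short transcript. In forskolin 2, part of Wnt10a also lay on a short transcript, with 2.07 scaled CPM on 636 bases. Short transcripts inflate the value per kb and with it the ligand sum. Wnt10a made up 20.4% and 32.7% of that sum with forskolin, 27.7% and 12.4% with cAMP, and 14.6% in the control. Wnt16 made up 14.1% and 5.09% of that sum with forskolin, 3.36% in cAMP 1, and was listed at 0 in cAMP 2 and in the control. Ranked per kb among the 44 listed genes, Ctnnb1 was at 46.7 scaled CPM per kb on average in the treated libraries (42.8 to 51.6) and 49.6 in the control, and Csnk1a1 at 30.3 (23.6 to 35.1) and 52.5. These were the top 2 in the treated mean and in the control. A short transcript also raised the control value of Csnk1a1 per kb. In the control 13.2 scaled CPM of Csnk1a1 lay on a transcript of 526 bases, against at most 0.158 in a treated library. Without division by length, its control value of 100 lay within the treated range of 79.1 to 119. Dvl1 ranked 3 in the treated mean and 12 in the control, Porcn 18 and 37, Wnt7b 26 and 9, Fzd10 30 and 8, and Tcf7l1 36 and 15. Treated and control ranges did not overlap for these 5 genes. All 5 had already been called against this same control, so the separation is no further support. Below rank 30 of the treated mean, levels were under 1 scaled CPM per kb and neighbours overlapped. The rank of Wnt16 is not given for the same reason.

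For several genes the total over transcripts and the protein-coding transcripts gave different results, a choice of summary examined after the values were seen. Transcripts of a gene share most of their sequence, and how reads were divided among them is not given in the sources used here. Porcn transcripts annotated as targets of nonsense-mediated decay summed to 5.91 and 6.06 scaled CPM with forskolin, 6.04 and 2.70 with cAMP, and 0.0623 in the control. Its protein-coding transcripts reached 1.88 in forskolin 2 and 0.439 in cAMP 1, and were listed at 0 in the other libraries. Counting protein-coding transcripts alone, neither Porcn (0.76 and 0.26) nor Dvl1 (0.23 with forskolin and -1.12 with cAMP) passed. Both calls of Wnt5a were lost too (limma adjusted p = 0.234 and 0.0842). In the control a processed transcript held 31.5% of Wnt5a, and it was listed at 0 in the treated libraries. Wnt3 lost its forskolin call (-1.48 ± 0.52) and Wnt3a its cAMP call (-1.72 ± 0.58), with unchanged size and larger SE. Fzd2 lost its forskolin call, and Dvl3 and Wif1 their cAMP calls.

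Wls and Lrp5 passed on protein-coding transcripts but not on the total, and the change of Rnf43, called on both, was larger on protein-coding transcripts. Protein-coding transcripts of Wls were at 4.39 and 4.30 with forskolin, 4.42 and 4.55 with cAMP, and listed at 0 in the control, while 1 decay-target transcript took 62% to 79.9% of the gene in the treated libraries and 89.7% in the control. Protein-coding Lrp5 was at 7.06 and 19.6 with forskolin, 8.30 and 4.44 with cAMP, and 0.0108 in the control. Protein-coding Rnf43 was at 6.24 and 8.91 with forskolin, 9.52 and 6.95 with cAMP, and 0.0623 in the control, where a retained-intron transcript held 98.2% of the gene. On protein-coding transcripts alone, Wls (2.42 ± 0.50 and 2.46 ± 0.50), Lrp5 (3.67 ± 0.61 and 2.81 ± 0.61) and Rnf43 (2.99 ± 0.49 and 3.11 ± 0.49) passed as higher with both agents (limma adjusted p from 0.00233 to 0.0105). With that summary 5 of the 39 passed as higher and 4 as lower in each comparison, where 14% and 3.55% (forskolin) and 14.9% and 4.44% (cAMP) of 12285 genes did. Fzd10, Tcf7l1 and Wnt7b passed as lower with both agents there as well. Wnt3 did so with cAMP only and Wnt3a with forskolin only.

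**Figure D5:**
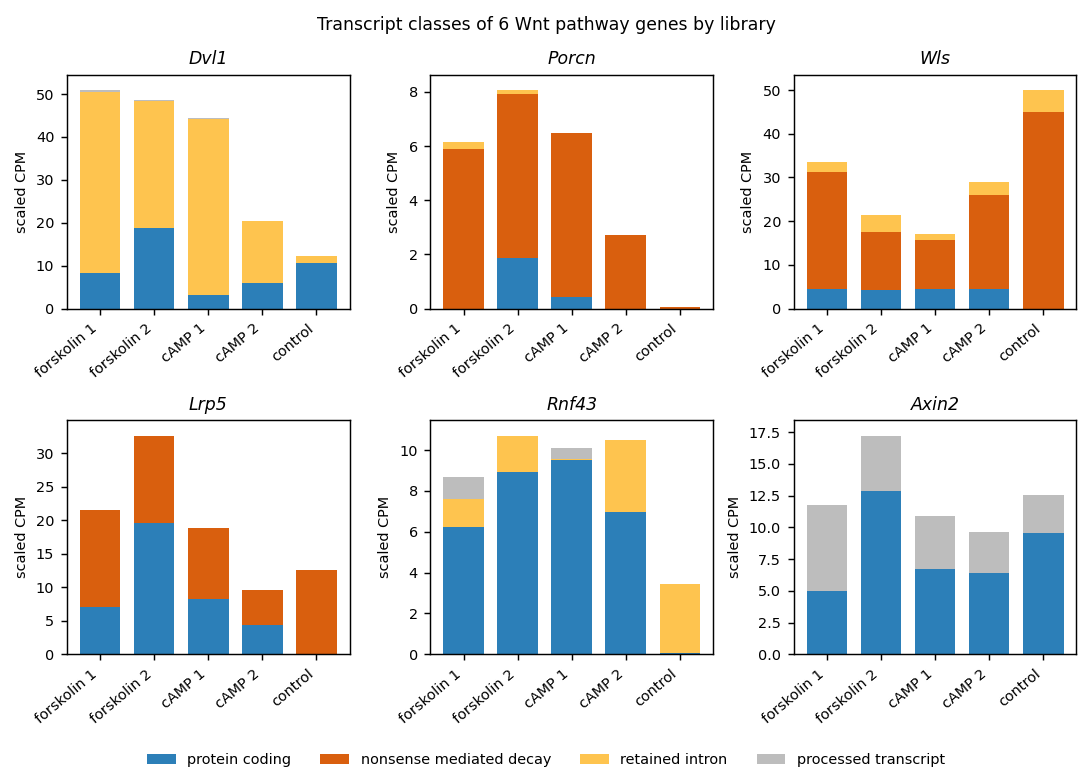
Summed scaled CPM of protein-coding, nonsense-mediated-decay, retained-intron and processed transcripts of 6 Wnt pathway genes, in the 2 forskolin, 2 cAMP and 1 control libraries. The treated bars of Dvl1 are mostly retained-intron and those of Porcn mostly decay-target transcripts, while the control bars of Wls, Lrp5 and Rnf43 hold hardly any protein-coding part.

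Because the study is about Creb, promoters were searched for the full cAMP response element TGACGTCA, its core TGACG, and CTTTGA and CTTTGT, the letters of the usual TCF/LEF site, on both strands. RefSeq promoters on GRCm38.p6, from 250 bases before to 50 bases after a gene's start, were at hand for 28 of the 45 genes, in 35 promoters. Dvl1, which rose, held the only full element among them, at bases 4 to 11 counted from the start site, as 1.79% of all 32851 promoters did. The full element contains the core on each strand. The core was found in 5 of the genes (Ctnnb1, Dvl1, Gsk3a, Tcf7l2 and Wnt10b), and 20.8% of all promoters held it. CTTTGA was found in 5 (Fzd1, Gsk3a, Gsk3b, Lef1 and Sp5), and 16% of all promoters held it. CTTTGT was found in 7 (Fzd1, Fzd7, Lef1, Sp5, Tcf7l1, Tcf7l2 and Wnt3), and 18.7% of all promoters held it. Of the genes with either, Wnt3 and Tcf7l1 fell, and the others did not pass or were not tested. These windows are shown 5′ to 3′ on the gene's strand, with the matched letters in capitals, for Dvl1 at chr4:155847152-155847426, Wnt3 at chr11:103773925-103774199 and Tcf7l1 at chr6:72789021-72789295. A match describes the letters in the window and no more.
Dvl1: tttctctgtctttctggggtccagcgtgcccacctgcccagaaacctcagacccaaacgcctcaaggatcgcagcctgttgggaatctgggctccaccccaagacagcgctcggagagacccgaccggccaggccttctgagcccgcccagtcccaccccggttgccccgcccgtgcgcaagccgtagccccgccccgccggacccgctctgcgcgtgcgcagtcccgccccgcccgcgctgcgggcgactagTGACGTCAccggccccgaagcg
Wnt3: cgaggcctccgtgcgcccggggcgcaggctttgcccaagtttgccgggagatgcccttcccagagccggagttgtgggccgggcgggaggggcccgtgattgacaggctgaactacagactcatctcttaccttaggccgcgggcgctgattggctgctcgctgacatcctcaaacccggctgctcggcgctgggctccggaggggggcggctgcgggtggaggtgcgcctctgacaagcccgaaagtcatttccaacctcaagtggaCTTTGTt
Tcf7l1: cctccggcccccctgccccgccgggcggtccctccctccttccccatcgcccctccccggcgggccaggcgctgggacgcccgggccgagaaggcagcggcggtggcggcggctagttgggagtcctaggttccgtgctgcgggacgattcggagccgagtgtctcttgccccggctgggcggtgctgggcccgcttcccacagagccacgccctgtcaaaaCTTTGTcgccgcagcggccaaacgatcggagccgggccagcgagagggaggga

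Forskolin and cAMP were compared directly with 2 libraries each. None of the 39 genes passed, where 61 of 13764 genes (0.443%) did, and the smallest adjusted p was 0.307 by limma. At an unadjusted p under 0.05 there were 8 of 39 (20.5%, where 11.3% of all tested genes were). Of these 8, Lrp5, Wnt7b, Dvl3, Wnt4, Wnt10a, Wnt3 and Fzd10 were higher with forskolin than with cAMP by 0.78 to 0.97 log2 units, and Wif1 was lower by -1.23. For Wnt7b the difference was 0.97 (95% interval 0.16 to 1.78) and for Fzd10 0.78 (0.03 to 1.53), at the values given above. For Ctnnb1 it was -0.02 (-0.67 to 0.62) and for Axin2 0.44 (-0.26 to 1.15). Half-widths of the intervals ran from 0.65 to 0.98.

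Libraries differed with GC content, both between and within groups, which touches the GC-rich Wnt genes. Over all tested genes, the median of forskolin minus control was -0.12 log2 in the GC-poorest genes, 0.22 in the middle and 0.57 in the GC-richest. For cAMP minus control it was -0.12, 0.22 and 0.50. Within the forskolin pair, forskolin 2 minus forskolin 1 was -0.26, 0.04 and 0.25. Over all tested genes, the median of cAMP 2 minus cAMP 1 was 0.28 log2 in the GC-poorest genes, -0.02 in the middle and -0.29 in the GC-richest. Of the 39 Wnt genes, 20 fell among the GC-richest, and 12 of them were lower in cAMP 2 than in cAMP 1, against 3 of 11 in the middle and 0 of 8 among the GC-poorest. The low cAMP 2 values of Wnt4, Wnt10a, Wnt7b, Dvl1 and Lrp5 stand beside this. With GC content and length removed from each library, 2 genes passed as higher and 11 as lower with cAMP, where 1820 and 1860 of 13668 genes did. The part of GC content in the differences from the control and between agents was not tested further.

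Of 88 other Wnt pathway genes, 77 were listed and 60 tested. With forskolin 7 passed as higher and 3 as lower, where 14.9% and 6.79% of all tested genes did, and with cAMP 5 and 6, where 15.4% and 7.23% did. The shares higher were below those of all tested genes. Celsr2, a cadherin of planar cell polarity, stood out at 46.3 and 80.7 scaled CPM with forskolin, 42.7 and 44.2 with cAMP, and 3.92 in the control (3.66 ± 0.40 and 3.17 ± 0.40, limma adjusted p = 2.08e-05 and 3.57e-05). Vangl1, another planar polarity protein, and Btrc, which tags beta-catenin for breakdown, were higher with both agents. Vangl1 was at 13.0 and 16.2 with forskolin, 14.5 and 12.9 with cAMP, and 4.80 in the control. Btrc was at 3.85 and 4.29, 4.24 and 3.94, and 0.685. Ctnnbip1, which keeps beta-catenin from TCF factors, was lower with both agents, at 5.75 and 7.15 with forskolin, 8.11 and 4.90 with cAMP, and 19.8 in the control. Rspo3, an R-spondin known from the dermal papilla, was lower as well, at 0.612 and 0.165, 0.0828 and 1.08, and 4.05. The planar polarity genes did not move together. Of 9 tested, 2 passed as higher and 0 as lower with forskolin, and 2 and 2 with cAMP. The lower ones with cAMP were Celsr1 (-1.42) and Daam1 (-1.18). Hipk2 passed as higher with forskolin only (1.93). Wnt11, listed at 0 in the control, passed as higher with cAMP only (1.57).

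Of 13 tested genes from a list of 20 direct Wnt targets, 2 were higher and 4 lower with each agent, where 14.9% and 6.79% of all tested genes passed with forskolin and 15.4% and 7.23% with cAMP. Rnf43 and Myc, a growth regulator, were higher: Myc was at 45.9 and 37.4 scaled CPM with forskolin, 34.2 and 31.2 with cAMP, and 9.53 in the control (2.01 ± 0.38 and 1.68 ± 0.38, limma adjusted p = 0.00131 and 0.00414). Ccnd1, the gene of cyclin D1, was lower, at 22.5 and 15.3 with forskolin, 14.2 and 15.6 with cAMP, and 54.8 in the control (-1.51 ± 0.39 and -1.81 ± 0.39, limma adjusted p = 0.0115 and 0.00319). Tnfrsf19, a receptor known in follicle stem cells, was at 21.2 and 15.8, 8.70 and 13.6, and 63.3. Apcdd1, a membrane inhibitor of Wnt, was at 8.61 and 12.1 with forskolin, 8.88 and 10.2 with cAMP, and 31.8 in the control, and Bambi, a decoy receptor of the BMP pathway, was at 1.27 and 0.330, 0.663 and 0.787, and 5.6. All 4 lower targets had every treated library below the control. The directions of this list were therefore mixed, with Axin2 and Tcf7 among those that did not pass. The list's median change was 0.07 with forskolin and -0.19 with cAMP, against 0.21 and 0.20 for all tested genes.

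Sums of cell type markers differed between the groups, and members of a list did not all go the same way. Of all tested genes, 14.9% passed as higher and 6.79% as lower with forskolin, and 15.4% and 7.23% with cAMP. The 8 keratinocyte markers were all present and summed to 5106.2 and 4480.9 scaled CPM with forskolin, 4428.2 and 2778.1 with cAMP, and 7767.8 in the control. Of these 8, 0 passed as higher and 2 as lower with forskolin, and 0 and 4 with cAMP, and Krt14, a keratin of basal cells, was at 1413.8 and 1335 with forskolin, 1501.4 and 948 with cAMP, and 833 in the control. The 10 markers of dermal fibroblasts, which an epidermal sheet should hardly hold, summed to 17.7 and 177 with forskolin, 86.2 and 289 with cAMP, and 577 in the control, and 5 of 9 tested passed as lower with forskolin and 2 with cAMP. The 10 bulge markers, which include Tcf7l1, summed to 674 and 522 with forskolin, 678 and 425 with cAMP, and 907 in the control. That sum is mostly Krt15, at 566 and 389, 583 and 331, and 804. Of the 10, 1 passed as higher and 2 as lower with forskolin, and 1 and 1 with cAMP. Ctgf was higher with both agents (2.01 and 1.59, limma adjusted p = 0.00448 and 0.0164). The lower genes were Tcf7l1 itself and Cd34 with forskolin, and Tcf7l1 alone with cAMP, so these counts partly repeat the Tcf7l1 result. The sum of the 10 sebaceous gland markers went the other way. It was 1089.2 and 1765.5 with forskolin, 3145.4 and 5143.4 with cAMP, and 560 in the control, where Pparg was listed at 0. Of these 10, 6 passed as higher and 1 as lower with forskolin, and 9 and 0 with cAMP. In such bulk samples fewer cells of a type and less RNA per cell cannot be told apart. Dermal papilla markers summed to at most 4.05 in any library. The part of these shifts in the lower Wnt ligands, Fzd10 and Tcf7l1 was not tested.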

How the data were processed

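The authors deposited 1 table of 59869 transcripts in CPM (counts normalised by the authors to a common library total), with a tiny offset in place of 0, per the file headers and values. bcl2fastq 2.17, STAR and Partek are named in the submitters' processing notes. The aligner's settings, genome build, strand setting and annotation are not given in the sources used here. Of the members' transcripts found by ID in GENCODE M21 on GRCm38, 130 of 149 had the same position, and coordinates are given on that build. The kit is stranded per the labels, but overlapping genes may still share reads.

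CPM were summed per gene ID with Python 3.11.15 and pandas 2.3.3. The 3 rows without a gene ID, at most 0.0679% of a library, were left out. Each library was then divided by its median ratio to the geometric mean, over 11935 genes that exceeded 0.05 CPM throughout (factors 1.41 and 1.31 for forskolin, 1.64 and 1.12 for cAMP, 0.325 for the control). Genes at 1 CPM or more in at least 2 libraries were fitted with limma 3.58.1 in R 4.3.3 on log2(scaled CPM + 1), a scale that understates the change of low genes, with 3 groups, an intensity trend, 2-sided tests and Benjamini-Hochberg adjustment over all genes tested. Residual and prior degrees of freedom were 2 and 16.4. The procedure was tested on simulated data. Low values did not resolve into whole reads, so no count test was run. Depth was estimated by taking the offset as 0.0001 read.

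Lengths and GC content came from GENCODE M21 transcripts, matched for 98.3% of transcripts. The 45 genes and the other lists were chosen with earlier results of these data known. All 45 were to be accounted for, with full values for called genes (up to 8 per direction and comparison), feedback targets and Ctnnb1, and up to 4 other pathway genes per direction. Same-numbered libraries of the 2 agents did not deviate together (r = -0.07). Alternatives were other scalings, pseudocounts of 0.1 and 5, other filters, GC and length correction, each treated library left out and, chosen after seeing the data, protein-coding transcripts alone.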

Additional observations from a re-analysis of the deposited data

Results flagged for a closer look

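Among the 39 tested genes of the 45, Tcf7 was the only one whose libraries split by agent on opposite sides of the control: 22.8 and 24.5 scaled CPM with forskolin, both above the control, and 18.7 and 20.5 with cAMP, both below it, with 22.5 in the control. The distances are small, and how many of all tested genes split in this way was not counted. The direct comparison, forskolin minus cAMP, gave 0.26 log2 units (95% interval -0.39 to 0.90) and did not pass (limma adjusted p = 0.814), and a single control value sets which side each library falls on.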

How the results depend on the processing

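Of the 25 calls against the control, 24 remained when libraries were scaled to nuclear genes, 22 and 21 with pseudocounts of 0.1 and 5, 18 with GC and length correction, 16 with quantile normalization, 14 on protein-coding transcripts alone, 13 on deposited CPM and 6 without a filter on low values; of the 8 with a value at 10 CPM or more, 8 remained. Fzd10 passed in 11 of 12 other settings in each comparison, not on deposited CPM, and Wnt5a with forskolin in 4 of 12. The number of members called with forskolin, 12, became 25 on deposited CPM, 3 without a filter, 4 at 10 CPM, and 7 to 11 with a treated library left out. With cAMP, 13 became 24 on deposited CPM, 7 with quantile normalization, 3 without a filter, 4 at 10 CPM, and 8 to 14. Over all genes, 2985 forskolin calls became 9177 on deposited CPM, 1902 with quantile normalization, 1960 without a filter, 1542 at 10 CPM and 1937 to 2762 with a library left out; 3121 cAMP calls became 9025, 2045 with quantile normalization, 1578 at 10 CPM and 1984 to 3246. Between the agents no member was called in any setting, while 61 calls over all genes became 35 with quantile normalization, 8 with a pseudocount of 0.1, 0 without a filter, 123 at 10 CPM, 14 with GC and length correction, 2 on protein-coding transcripts, and 0 to 190 with a library left out. With the replicate block 185 genes and 0 members were called, and it changed no member's call; the numbers do not pair the libraries. Fewer genes were tested at 10 CPM; for the other changes the cause was not tested. Counting genes called in at least 1 of the 2 settings compared, directions turned on deposited CPM with forskolin for Wnt3 (0.40), Wnt5a (0.23), Wnt7b (0.13), Wnt10a (1.53), Axin1 (1.82), Apc (1.35), Gsk3b (1.54), Csnk1a1 (2.03) and Ctnnb1 (1.71), and with cAMP for Fzd1 (1.77), Axin1 (1.55), Axin2 (1.54), Csnk1a1 (1.91), Ctnnb1 (1.72), Tcf7 (1.72) and Sfrp1 (1.64). On protein-coding transcripts alone, by the same criterion, they turned for Wls (2.42 with forskolin, 2.46 with cAMP) and for Dvl1 with cAMP (-1.12).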
